A study of Mus musculus with 34 samples.

Results

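The genes described here are 42 named protein-coding genes of the segment of mouse chromosome 16, from Lipi to Zbtb21, that is present in an extra copy in Dp16 mice. They were taken by name, and 41 reached a mean of 0.5 CPM (counts scaled to a common library total) in cortex and were tested, out of 106 tested genes of the segment and 17632 tested genes in all. Sim2, a transcription factor of midline development, fell under that level with a mean of 0.146 CPM and at most 14 reads in a library. Its levels are given only as counts, because most libraries held 0 to 6 reads.

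A duplicated segment adds a copy of each gene it holds, so that carriers have 3 copies in place of 2, and RNA that simply follows the copy number stands at 1.5 times the level of non-carriers. Genes can depart from that level. A gene under feedback control, or one whose RNA is limited by something other than its template, may stay closer to the level without the extra copy, which is called dosage compensation. The segment corresponds to a large part of human chromosome 21, the chromosome that is trisomic in Down syndrome, and its genes serve many unrelated tasks, among them protein folding and turnover, RNA processing, mitochondrial translation, metabolism and transport.

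Poly-A RNA was read from the brain cortex of 34 mice aged 6 months. The 19 non-carriers were 5 sham-treated and 5 tofacitinib-treated wild-type C57BL/6J mice and 4 sham-treated and 5 tofacitinib-treated 5xFAD mice. The 15 carriers were 3 sham-treated and 5 tofacitinib-treated Dp16 mice and 3 sham-treated and 4 tofacitinib-treated 5xFAD-Dp16 mice. In 5xFAD mice, Thy1 promoter sequences drive mutated human genes of familial Alzheimer's disease, mainly in neurons. Tofacitinib, a Janus kinase inhibitor, was given at 15 mg/kg by oral gavage each day for a month, and sham mice received the 0.5% methylcellulose vehicle. Both sexes were present in every group, and sex was a term of the fit.

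Libraries held 16029841 to 21388650 counted reads, no pair of libraries had identical counts, and neuron and cortical layer markers were detected in every library. Wild-type sham 2 (66.9) and 5xFAD tofacitinib 2 (-49.5) lay far from the rest along principal component 2. Along principal component 1 they lay at -47.1 and -45.7, near wild-type tofacitinib 1 (-43.9) and Dp16 tofacitinib 4 (-36.4). The calls on single genes over all carriers that change without wild-type sham 2 and 5xFAD tofacitinib 2 are given with each gene. In 5xFAD tofacitinib 2 the summed neuron markers were 3544 CPM and the upper layer markers 187 CPM, the lowest of all libraries, beside medians of 7126 and 497 CPM in non-carriers. Summed choroid plexus markers ran from 5.41 to 1489 CPM over the libraries. Striatal marker genes varied widely between libraries, with a summed level of 417 to 2135 CPM in carriers (median 877) and 582 to 2954 CPM in non-carriers (median 1517). In bulk tissue, fewer cells of a type and less RNA per cell cannot be told apart. The p-values measure the spread between these mice.

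The ratio of a gene is the fitted level in carriers over that in non-carriers, averaged over the 4 pairs of groups with the same transgenes and treatment, with its 95% interval. All 41 ratios lay above 1, and 31 of the 41 genes rose in carriers (edgeR quasi-likelihood test, Benjamini-Hochberg adjusted p under 0.05 over all 17632 genes), against 1.17% of all tested genes called higher. None of the 41 was lower. Without both of the libraries that stood apart, 34 rose. The median ratio of the 41 genes was 1.43, beside 1.49 for the 65 other tested genes of the segment and 1.00 for all tested genes. The middle of the distribution was narrow: 27 of the 41 ratios lay between 1.35 and 1.65, and 12 exceeded 1.5. In each library, the level of each gene was divided by its mean in the matching non-carrier group, so non-carriers lie around 1 by construction. The median over the 41 genes was 1.31 to 1.57 in carriers and 0.889 to 1.15 in non-carriers, without overlap.

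**Figure D1:**
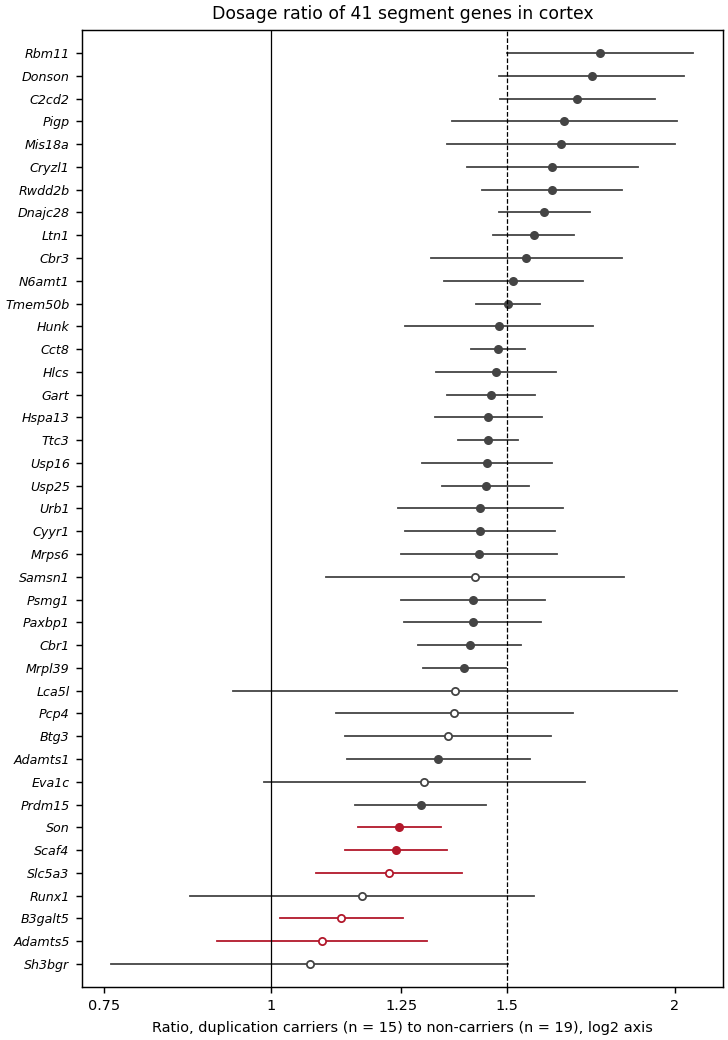
Ratio of carriers (15 mice) to non-carriers (19 mice) for the 41 tested genes on a log2 axis, with 95% intervals; the solid line marks 1 and the dashed line 1.5. Filled points were called different from 1, open points were not, and the 5 genes in red were called below 1.5-fold. Ratios ran from 1.07 for Sh3bgr to 1.76 for Rbm11.

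Each ratio was also tested against 1.5-fold, with p-values adjusted over the 106 tested genes of the segment. Of the 41 genes, 5 stood below 1.5-fold (Son, Scaf4, B3galt5, Slc5a3 and Adamts5) and 0 stood above it, against 8.49% of the segment's genes below and 2.83% above. DESeq2 also called 5 below and 0 above, but 3 (Son, Scaf4 and B3galt5) were called below without Dp16 sham 3, and the same 3 without wild-type sham 2 and 5xFAD tofacitinib 2. With a trend on gene length removed, 8 were called below, also Cbr1, Mrpl39 and Prdm15. The intervals of 34 genes held 1.5, those of 7 lay wholly below it and 0 lay wholly above it, so for most genes an excess or deficit could not be told from 1.5-fold at this number of mice. The intervals of 4 genes held both 1 and 1.5.

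The promoter windows of the genes called below 1.5-fold and of the 3 genes with the highest ratios are printed because they show the sequence around annotated starts of genes at low and high ratios. They are RefSeq windows of build GRCm38.p6 from 250 bases before to 50 bases after the annotated start, on the gene's strand. The capitals mark matches on either strand to short promoter motifs. The TATA box was searched as TATAAA. The GC box was searched as GGGCGG, and the CCAAT box by the letters of its name. The genes called below 1.5-fold come first, without Adamts5, and B3galt5 and Scaf4 are shown at the most upstream of their listed starts.
Son (chr16:91647574-91647873, plus strand): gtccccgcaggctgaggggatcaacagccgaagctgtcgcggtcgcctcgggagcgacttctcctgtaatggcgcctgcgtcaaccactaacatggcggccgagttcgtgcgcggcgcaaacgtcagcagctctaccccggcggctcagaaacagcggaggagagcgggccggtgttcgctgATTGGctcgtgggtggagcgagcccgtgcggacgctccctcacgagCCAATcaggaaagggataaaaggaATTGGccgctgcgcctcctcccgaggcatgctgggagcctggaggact
Scaf4 (chr16:90284454-90284753, minus strand): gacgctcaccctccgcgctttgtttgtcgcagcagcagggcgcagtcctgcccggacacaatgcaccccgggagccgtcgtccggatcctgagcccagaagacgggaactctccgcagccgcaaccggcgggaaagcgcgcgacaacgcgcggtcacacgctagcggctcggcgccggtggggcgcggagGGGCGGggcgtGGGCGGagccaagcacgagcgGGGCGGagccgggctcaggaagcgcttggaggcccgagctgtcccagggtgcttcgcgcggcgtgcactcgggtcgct
B3galt5 (chr16:96235551-96235850, plus strand): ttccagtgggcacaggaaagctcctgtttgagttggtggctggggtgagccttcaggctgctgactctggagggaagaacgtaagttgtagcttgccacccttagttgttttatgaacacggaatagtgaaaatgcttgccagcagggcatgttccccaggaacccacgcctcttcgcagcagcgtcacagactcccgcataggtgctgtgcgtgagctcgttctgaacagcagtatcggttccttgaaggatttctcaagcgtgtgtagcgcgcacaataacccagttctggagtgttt
Slc5a3 (chr16:92058072-92058371, plus strand): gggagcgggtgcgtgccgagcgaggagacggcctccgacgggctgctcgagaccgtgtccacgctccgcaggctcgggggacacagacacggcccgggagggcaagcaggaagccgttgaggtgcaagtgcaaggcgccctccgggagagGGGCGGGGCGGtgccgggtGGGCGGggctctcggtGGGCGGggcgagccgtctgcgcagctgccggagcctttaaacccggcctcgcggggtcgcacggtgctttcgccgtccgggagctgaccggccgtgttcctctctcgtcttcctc
The genes with the 3 highest ratios follow.
Rbm11 (chr16:75592641-75592940, plus strand): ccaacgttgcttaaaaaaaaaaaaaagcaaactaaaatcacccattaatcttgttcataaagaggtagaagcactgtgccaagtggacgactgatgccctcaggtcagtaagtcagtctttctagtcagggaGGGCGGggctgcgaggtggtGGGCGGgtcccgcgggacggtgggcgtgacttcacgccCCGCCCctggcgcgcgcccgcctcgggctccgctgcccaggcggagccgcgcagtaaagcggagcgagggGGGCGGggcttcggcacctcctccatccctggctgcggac
Donson (chr16:91688679-91688978, minus strand): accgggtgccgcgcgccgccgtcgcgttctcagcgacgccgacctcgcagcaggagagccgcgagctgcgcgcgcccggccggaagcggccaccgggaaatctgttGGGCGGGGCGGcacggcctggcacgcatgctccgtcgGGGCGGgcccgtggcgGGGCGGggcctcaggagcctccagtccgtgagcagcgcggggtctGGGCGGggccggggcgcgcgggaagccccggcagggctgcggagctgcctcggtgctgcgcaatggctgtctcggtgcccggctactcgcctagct
C2cd2 (chr16:97922584-97922883, minus strand): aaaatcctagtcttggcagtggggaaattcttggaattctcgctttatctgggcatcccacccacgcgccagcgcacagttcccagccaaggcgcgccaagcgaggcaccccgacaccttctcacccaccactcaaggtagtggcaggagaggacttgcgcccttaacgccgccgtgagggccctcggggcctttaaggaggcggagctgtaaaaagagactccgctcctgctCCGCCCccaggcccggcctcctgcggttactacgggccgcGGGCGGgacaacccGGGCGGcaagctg
The B3galt5 window held 12 CpG and none of the 3 motifs, whereas Donson, with 46 CpG and 5 GC box matches, held the most of the 7. Son had 31 CpG and 3 CCAAT boxes. Scaf4 had 43 CpG and 3 GC boxes, Slc5a3 38 and 4, Rbm11 25 and 4, and C2cd2 24 and 3. Windows were found for 37 of the 42 genes (all but Hspa13, Rwdd2b, Sim2, Sh3bgr and Adamts5). Each gene was counted only at the most upstream of its listed starts. A GC box lay in 22 of the 37, a CCAAT box in 11 and a TATA box in 2, beside 35.7%, 37.4% and 13.6% of all 32851 windows. The median CpG count was 24 in the 37 windows and 7 in all windows. All windows took in every listed start of a gene, with no filter on its level in cortex, so they are not a matched set. Runx1 had a ratio of 1.17, under those of Slc5a3, Scaf4 and Son, but was not called below 1.5-fold. At the most upstream of its 2 listed starts it held 2 CpG, the fewest of the 37 windows, and 2 CCAAT boxes. The other windows with fewer CpG than B3galt5 belonged to genes at higher ratios. They were Samsn1 (5 CpG, ratio 1.42), Cyyr1 (6, 1.43), Pcp4 (6, 1.37), Btg3 (9, 1.35), Cbr1 (11, 1.41) and N6amt1 (11, 1.52). The printed windows of genes called below 1.5-fold held from 12 CpG (B3galt5) to 43 CpG (Scaf4). Which start is used in cortex was not tested, and these letters are a description of the windows, not of binding. The RefSeq starts of C2cd2, Son, Rbm11 and Donson lie inside the genes as GENCODE draws them. The printed windows of C2cd2 and Son lie wholly inside.

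All 9 genes of protein folding, assembly and turnover rose, with ratios of 1.41 to 1.62 and a median of 1.45, and none was called different from 1.5-fold. Cct8 (chr16:87483326-87495873, minus strand), a subunit of the chaperonin that folds actin and tubulin, ranged from 131 to 155 CPM in non-carriers (median 146) and from 197 to 240 CPM in carriers (median 210). No carrier overlapped a non-carrier, and its ratio was 1.48 (1.41 to 1.55, adjusted p = 1.29e-13 by edgeR). Ttc3 (chr16:94370618-94469343, plus strand), a ubiquitin ligase named for its tetratricopeptide repeats, was the most counted of the 41 genes. It ranged from 747 to 972 CPM in non-carriers (median 899) and from 1188 to 1425 CPM in carriers (median 1297), again without overlap, at a ratio of 1.45 (1.38 to 1.53, edgeR adjusted p = 2.61e-12). Ltn1 (chr16:87376651-87432612, minus strand), the ligase that marks stalled nascent chains on ribosomes, ranged from 23.7 to 36.6 CPM in non-carriers (median 31.3) and from 43.1 to 56.0 CPM in carriers (median 50.2). Its groups did not overlap either, and its ratio was 1.57 (1.46 to 1.68, edgeR adjusted p = 3.56e-11).

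Dnajc28, a member of the J-domain co-chaperone family, was the only gene of the 41 whose ratio exceeded 1.5 in all 4 pairs of groups. Its levels were 11.2 to 15.8 CPM in non-carriers (median 12.4) and 16.9 to 23.6 CPM in carriers (median 20.7), and its ratio was 1.60 (1.48 to 1.73). Its interval reached below 1.5, and it was not called above 1.5-fold (edgeR adjusted p = 0.344). The other 5 genes of the group rose with overlapping levels. Rwdd2b, an RWD-domain protein, had a ratio of 1.62. Hspa13, a microsomal relative of the Hsp70 chaperones, had 1.45. Usp16, a deubiquitinase of histone H2A, had 1.45, and Usp25, another deubiquitinase, had 1.45. Psmg1, a chaperone of proteasome assembly, had 1.41. The exons of Usp16 and Cct8 share 192 bases on opposite strands, and those of Pigp and Ttc3 share 326, so some of their reads cannot be assigned with certainty where the counting ignored strand. The same holds for Paxbp1 (1142 bases with 4930404I05Rik), Gart (1014 with Gm15964), Btg3 (695 with Cxadr) and Cryzl1 (444 with Gm10785). On the same strand, Mrps6 shares 305 bases with Gm49711, Pigp 234 with Gm15310 and Cyyr1 165 with Gm2541, which no strand setting separates.

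All 15 carriers stood above all 19 non-carriers for 7 of the 41 genes: Dnajc28, Ltn1, Tmem50b, Cct8, Gart, Ttc3 and Mrpl39, beside 0.0907% of all tested genes. Tmem50b (chr16:91574503-91597800, minus strand), a small membrane protein of the endoplasmic reticulum and Golgi, lay closest to the copy number. It ranged from 64.9 to 84.1 CPM in non-carriers (median 72.8) and from 104 to 123 CPM in carriers (median 110), with a ratio of 1.5 (1.42 to 1.59).

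**Figure D2:**
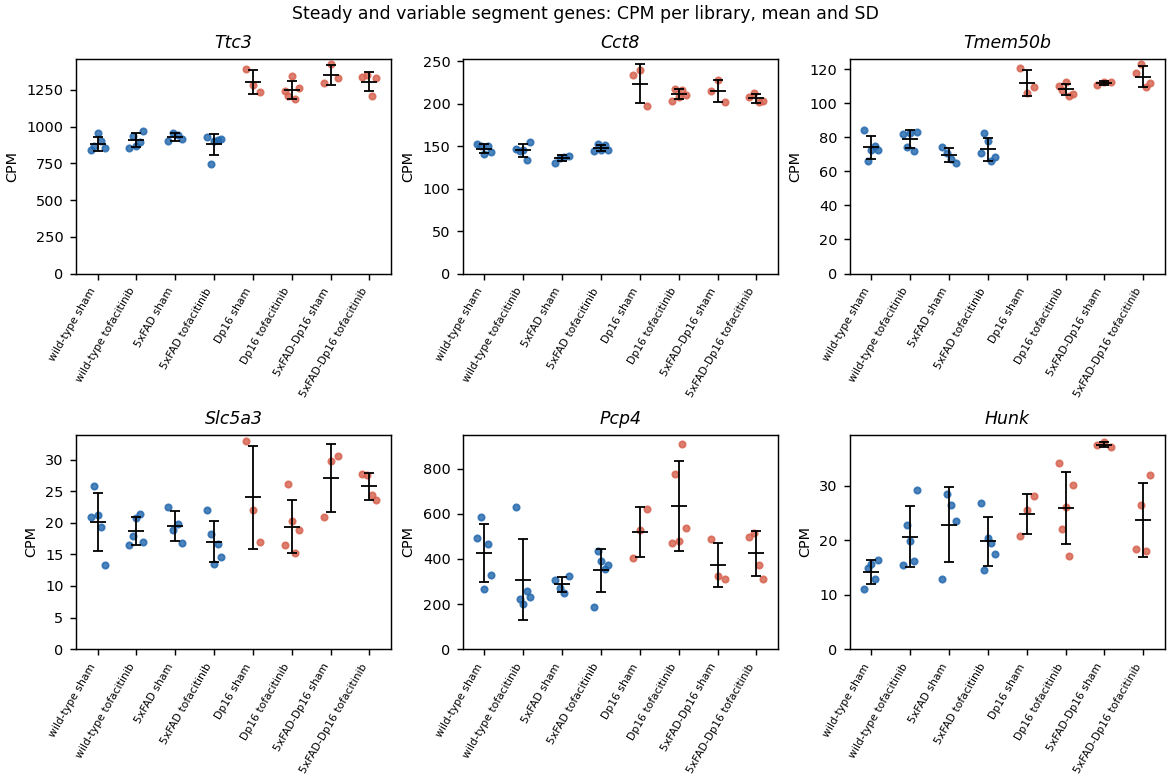
CPM of 6 genes in every library, by group; blue points are non-carriers, red points are carriers, and black marks give the mean and SD of each group. Ttc3, Cct8 and Tmem50b showed no overlap between carriers and non-carriers, while Slc5a3, Pcp4 and Hunk overlapped.

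Both genes of mitochondrial translation rose, and neither was called different from 1.5-fold. Mrpl39 (chr16:84717576-84735742, minus strand), a protein of the large mitochondrial ribosomal subunit, ranged from 22.4 to 32.1 CPM in non-carriers (median 26.0) and from 32.7 to 44.4 CPM in carriers (median 37.0). Its levels did not overlap. Its ratio was 1.39 (1.298 to 1.496), an interval wholly under 1.5, but its adjusted p against 1.5-fold was 0.211 (edgeR). Mrps6, of the small subunit, ranged from 10.8 to 26.4 CPM in non-carriers (median 15.0) and from 18.6 to 31.7 CPM in carriers (median 24.1), with overlap and a ratio of 1.43 (1.25 to 1.63).

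Metabolic enzymes rose in 6 of 7 cases, with a median of 1.47. Gart, which carries out several steps of purine synthesis, ranged from 21.1 to 33.9 CPM in non-carriers (median 30.4) and from 38.1 to 47.9 CPM in carriers (median 42.8), with a ratio of 1.46 (1.35 to 1.57). Hlcs, the enzyme that attaches biotin to carboxylases, had a ratio of 1.47. Cbr1 and Cbr3, neighbouring carbonyl reductases with similar sequences between which reads may be divided, had ratios of 1.41 and 1.55. Cryzl1, a quinone oxidoreductase-like protein, had 1.62. Pigp (chr16:94358763-94371842, minus strand), a subunit of the enzyme that starts GPI anchor synthesis, had the fourth highest ratio of all at 1.65 (1.36 to 2.01). Its levels of 7.80 to 26.2 CPM in non-carriers (median 15.1) and 14.2 to 35.5 CPM in carriers (median 25.1) overlapped broadly, and only 6 of 15 carriers exceeded every non-carrier.

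B3galt5 (chr16:96235801-96319859, plus strand), a galactosyltransferase that builds glycan chains, was the exception among the enzymes. It ranged from 36.3 to 71.6 CPM in non-carriers (median 43.3) and from 43.1 to 59.1 CPM in carriers (median 51.0), so that 14 of 15 carriers exceeded the median non-carrier and 0 exceeded every non-carrier. The 4 pairs of groups gave ratios of 1.05, 1.14, 1.25 and 1.08, all under 1.5. Its overall ratio was 1.13 (1.01 to 1.25), which was not called different from 1 (edgeR adjusted p = 0.269) but was called below 1.5-fold (edgeR adjusted p = 0.000162). In 5xFAD tofacitinib the 5 mice read 37.7, 71.6, 38.5, 41.9 and 42.7 CPM, and the high value was 5xFAD tofacitinib 2. Without that library the ratio was 1.19 and was called above 1 (edgeR adjusted p = 0.00589, and 0.00945 without wild-type sham 2 as well), and the call below 1.5-fold held in each of the 34 fits that left out a library.

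Of the 8 genes of RNA processing and gene regulation, 7 rose, and this group held both the highest ratio and 2 of the 5 genes below 1.5-fold. Son (chr16:91647506-91679221, plus strand), a nuclear speckle protein needed for splicing of weak sites, ranged from 139 to 198 CPM in non-carriers (median 171) and from 170 to 240 CPM in carriers (median 218). The highest non-carriers overlapped the lowest carriers, and 12 of 15 carriers exceeded every non-carrier. Its ratios in the 4 pairs were 1.33, 1.19, 1.17 and 1.31. The overall ratio of 1.25 (1.16 to 1.34) was above 1 (edgeR adjusted p = 0.000154) and below 1.5-fold (edgeR adjusted p = 0.000176).

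Scaf4 (chr16:90225680-90284503, minus strand), an RNA polymerase II binding protein that guards against early polyadenylation, showed much the same values. It ranged from 20.1 to 32.1 CPM in non-carriers (median 27.6) and from 28.5 to 42.5 CPM in carriers (median 33.1). All 15 carriers exceeded the median non-carrier and 8 exceeded every non-carrier. Its pair ratios were 1.28, 1.12, 1.29 and 1.27, and its overall ratio of 1.24 (1.13 to 1.35) was above 1 (edgeR adjusted p = 0.00389) and below 1.5-fold (edgeR adjusted p = 0.00181). The calls of Son and Scaf4 below 1.5-fold held in each of the 34 fits that left out a library.

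Rbm11 (chr16:75592844-75602829, plus strand), a splicing regulator found in brain and testis, had the highest ratio. It ranged from 2.86 to 7.90 CPM in non-carriers (median 5.57) and from 6.72 to 14.1 CPM in carriers (median 9.25), with some overlap at the edges and 12 of 15 carriers above every non-carrier. Its ratio was 1.76 (1.5 to 2.07), which was not called above 1.5-fold (edgeR adjusted p = 0.217). The pair ratios were 2.15 and 2.12 in sham mice and 1.44 and 1.46 in tofacitinib-treated mice. The difference between the treatments, a ratio of 0.68 (0.50 to 0.93), had an unadjusted p of 0.0182 and an adjusted p of 1.0 (edgeR), so it did not pass. The 3 Dp16 sham mice read 8.46, 13.2 and 14.1 CPM and the 3 5xFAD-Dp16 sham mice 10.02, 8.75 and 9.12 CPM.

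The other regulators lay between these. N6amt1, a methyltransferase of translation release factor eRF1, had a ratio of 1.52. Urb1, a ribosome biogenesis protein, had 1.43, and Paxbp1, a binding partner of PAX3 and PAX7, had 1.41. Prdm15, a zinc finger transcription factor, had 1.29 (1.16 to 1.45), an interval wholly under 1.5, but its adjusted p against 1.5-fold was 0.0781 (edgeR). Runx1 (chr16:92601466-92826149, minus strand), a transcription factor best known from blood cells, was low in cortex, at 0.124 to 2.40 CPM in non-carriers (median 1.59) and 1.14 to 2.65 CPM in carriers (median 1.84). Its groups overlapped almost fully, and its ratio of 1.17 (0.870 to 1.57) could be told neither from 1 nor from 1.5.

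The 3 genes of the cell cycle had mean levels of 5.25 to 12.3 CPM. Donson (chr16:91676808-91688770, minus strand), a replication fork protein, ranged from 2.54 to 6.41 CPM in non-carriers (median 3.98) and from 4.63 to 10.7 CPM in carriers (median 6.88). The ranges overlapped, with 12 of 15 carriers above every non-carrier. Its ratio was 1.73 (1.48 to 2.03), not called above 1.5-fold (edgeR adjusted p = 0.266), and its pair ratios spread from 1.28 in tofacitinib-treated to 2.26 in sham-treated Dp16 mice. Donson shares 103 exon bases with Son on the opposite strand and 287 with Atp5o on its own strand, so its counts may be incomplete. Mis18a, a centromere protein, had a ratio of 1.64, and Btg3, an antiproliferative protein, had 1.35 (1.13 to 1.62, edgeR adjusted p = 0.0615). Btg3 was called above 1 without wild-type sham 2 (edgeR adjusted p = 0.0283), without 5xFAD tofacitinib 2 (0.0347) and without both (0.0144). The same held without wild-type tofacitinib 1 (edgeR adjusted p = 0.0161), wild-type tofacitinib 3 (0.0401) or wild-type sham 4 (0.0442).

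**Figure D3:**
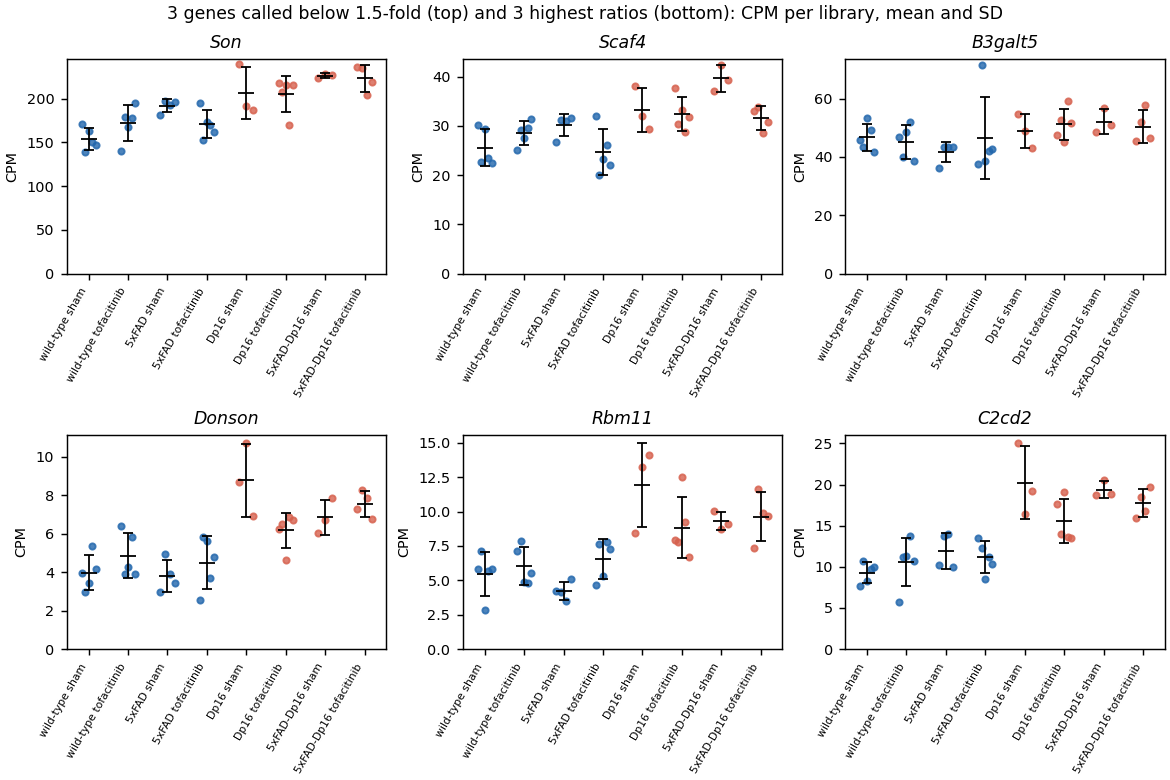
CPM of 6 genes in every library, by group, with Son, Scaf4 and B3galt5, called below 1.5-fold, in the top row and Donson, Rbm11 and C2cd2, with the 3 highest ratios, in the bottom row. Blue points are non-carriers, red points carriers, black marks the mean and SD. B3galt5 overlaps between carriers and non-carriers, with 5xFAD tofacitinib 2 at 71.6 CPM.

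Of the 12 genes of membrane transport, signalling and matrix, 5 rose, beside 31 of all 41 genes. Among these 12, 2 were called below 1.5-fold, and ratios ran from 1.07 to 1.69. Lca5l, Sh3bgr, Eva1c, Samsn1 and Adamts5, which were not called above 1, had low means of 0.725 to 3.08 CPM. Slc5a3 and Pcp4 were not called above 1 either, at means of 20.9 and 416 CPM. C2cd2 (chr16:97855209-97962598, minus strand), a C2-domain membrane protein, ranged from 5.77 to 14.0 CPM in non-carriers (median 10.7) and from 13.5 to 25.1 CPM in carriers (median 18.5), with 13 of 15 carriers above every non-carrier. Its ratio was 1.69 (1.48 to 1.93), not called above 1.5-fold (edgeR adjusted p = 0.268). It shares 86 exon bases with its neighbour Zbtb21.

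Slc5a3 (chr16:92058322-92087473, plus strand), the sodium-coupled inositol transporter through which cells take up this osmolyte, had uneven values. It ranged from 13.3 to 25.8 CPM in non-carriers (median 18.8) and from 15.1 to 32.9 CPM in carriers (median 23.5). Its overall ratio was 1.22 (1.08 to 1.39), below 1.5-fold (edgeR adjusted p = 0.0241) and not called above 1 (edgeR adjusted p = 0.081). The call below 1.5-fold was lost without a sex term (adjusted p = 0.0993), without Dp16 sham 3 (0.0883), without 5xFAD-Dp16 sham 1 (0.0675), without Dp16 sham 2 (0.0563), without wild-type sham 2 (0.052) and without both wild-type sham 2 and 5xFAD tofacitinib 2 (0.0547). Slc5a3 was instead called above 1 in that last fit (edgeR adjusted p = 0.0492), without a sex term (0.0354) and without 5xFAD-Dp16 sham 1 (0.0376).

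In mice without 5xFAD, Slc5a3 read 32.9, 22.1 and 17.0 CPM in Dp16 sham and 16.5, 26.0, 20.3, 15.1 and 18.9 CPM in Dp16 tofacitinib, which overlapped wild-type levels. In 5xFAD-Dp16 it read 20.8, 29.8 and 30.6 CPM in sham and 27.6, 27.6, 24.4 and 23.5 CPM in tofacitinib, all of the latter above the 5 5xFAD tofacitinib mice at 21.9, 18.3, 13.5, 16.7 and 14.7 CPM. The pair ratios were 1.14 and 0.99 against wild-type and 1.32 and 1.5 against 5xFAD. The difference between the transgene states, a ratio of 1.32 (1.04 to 1.68), had an unadjusted p of 0.0255 and an adjusted p of 0.995 (edgeR). Slc5a3 and Mrps6 start beside each other, with promoter windows offset by 14 bases, and share 159 exon bases on the same strand. The pair ratios of Mrps6 were 1.26, 1.43, 1.66 and 1.40 in the same order.

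Adamts5 and Adamts1, secreted proteases that cut aggrecan and related proteoglycans, lie beside each other. Adamts5 (chr16:85856173-85901828, minus strand) ranged from 1.71 to 4.20 CPM in non-carriers (median 2.81) and from 1.97 to 4.60 CPM in carriers (median 3.39), with broad overlap. Its ratio was 1.09 (0.910 to 1.31), below 1.5-fold (edgeR adjusted p = 0.0146), and its pair ratios spread from 0.857 to 1.48. That call was lost without Dp16 sham 3 (adjusted p = 0.0507), without a filter on low counts (0.0512) and without wild-type sham 2 and 5xFAD tofacitinib 2 (0.0547). Adamts1 ranged from 6.10 to 19.2 CPM in non-carriers (median 12.1) and from 13.3 to 23.0 CPM in carriers (median 16.3). Its pair ratios were 1.53 and 1.58 against wild-type and 1.15 and 1.13 against 5xFAD. Its ratio of 1.33 (1.14 to 1.56) was narrowly called above 1 (edgeR adjusted p = 0.041), a call lost in 21 of the 34 fits that left out a library, among them the fit without wild-type sham 2 (adjusted p = 0.061). Summed endothelial markers overlapped, at 273 to 355 CPM in carriers and 263 to 381 CPM in non-carriers. Of the 8 markers 1 was called lower in carriers, Cdh5, a junction protein of endothelium, at a ratio of 0.83 (edgeR adjusted p = 0.0491), and their part in these values was not tested.

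Hunk, a kinase related to the AMPK family, had a ratio of 1.48 (1.26 to 1.74). It read 10.99, 14.9, 15.6, 13.0 and 16.4 CPM in wild-type sham and 20.8, 25.5 and 28.0 CPM in Dp16 sham, without overlap. It read 37.4, 38.0 and 37.1 CPM in 5xFAD-Dp16 sham, above the 5xFAD sham mice at 12.9, 28.4, 26.4 and 23.6 CPM. In tofacitinib-treated mice the pair ratios were smaller, 1.28 and 1.21, beside 1.79 and 1.72 in sham, and the difference of 0.71 (0.52 to 0.97) had an unadjusted p of 0.0322 and an adjusted p of 1.0 (edgeR).

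Pcp4 (chr16:96467606-96525793, plus strand), a small protein that binds calmodulin, was the most abundant of the 41 genes per length, at 540 ± 200 RPKM in non-carriers (SD, n = 19). It ranged from 186 to 630 CPM in non-carriers (median 324) and from 311 to 912 CPM in carriers (median 487), with 2 of 15 carriers above every non-carrier. Its ratio of 1.37 (1.12 to 1.68) did not pass (edgeR adjusted p = 0.104), and its pair ratios were 1.2, 2.06, 1.21 and 1.17. Without wild-type tofacitinib 1, which read 630 CPM beside 199 to 256 CPM in the other mice of its group, the ratio was 1.5 and was called (edgeR adjusted p = 0.00535). Pcp4 is abundant in the striatum. In wild-type tofacitinib 1 the summed striatal markers were 2937 CPM, beside 582 to 936 CPM in the other mice of its group. None of the 12 striatal markers was called, their median ratio was 0.649, and their part in the Pcp4 values was not tested. Pcp4 shares 243 exon bases with Igsf5 on the same strand.

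Of the remaining genes of the group, Cyyr1, a small cysteine and tyrosine rich membrane protein, rose with a ratio of 1.43. Samsn1, an adaptor of immune cells, had a ratio of 1.42 (1.1 to 1.83) at 2.41 CPM, Lca5l, a relative of the ciliary protein lebercilin, 1.37 (0.936 to 2.01) at 0.725 CPM, and Eva1c, a receptor for the guidance factor Slit, 1.30 (0.987 to 1.71) at 2.13 CPM, and none of these passed. Sh3bgr (chr16:96200450-96228935, plus strand), an SH3-binding protein abundant in muscle, had the lowest ratio, 1.07 (0.760 to 1.5), at 0.298 to 1.72 CPM in non-carriers (median 0.713) and 0.404 to 1.56 CPM in carriers (median 0.903). Its levels overlapped fully, and without 5xFAD-Dp16 sham 4 the ratio was 0.94. Summed microglial markers, of which Samsn1 and Runx1 are not part, were 317 to 446 CPM in carriers and 357 to 492 CPM in non-carriers. Of the 8 markers 1 was called lower, P2ry12, a purine receptor of microglia, at a ratio of 0.863 (edgeR adjusted p = 0.0397), their median ratio was 0.944, and their part in these values was not tested.

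The 4 pairs of groups share no library, so each gene was measured in 4 separate sets of mice. Called higher were 11 of 41 genes in Dp16 against wild-type sham (0.193% of all tested genes), 13 in the same genotypes under tofacitinib (0.216%), 8 in 5xFAD-Dp16 against 5xFAD sham (0.102%) and 7 under tofacitinib (0.199%), with median ratios of 1.45, 1.44, 1.47 and 1.41. With 3 to 5 mice in a group, 23 of the 41 genes were called in no pair. Cct8, Ttc3, Tmem50b, Ltn1 and Dnajc28 were called in all 4. These counts depend on the fit: with only the 2 groups compared in a fit, 0, 3, 12 and 0 genes were called in the same order, so none in all 4, and with no filter on low counts 14, 22, 18 and 21 were. In 5xFAD-Dp16 sham 5 were called without 5xFAD sham 1, 5xFAD-Dp16 sham 2 or 5xFAD-Dp16 sham 4, and in 5xFAD-Dp16 tofacitinib 11 without wild-type tofacitinib 1 or 5xFAD tofacitinib 1 and 14 by DESeq2. The ratio exceeded 1 in all 4 pairs for 36 genes and was under 1.5 in all 4 pairs for 10. Every carrier of a pair exceeded every non-carrier for 22, 14, 32 and 20 genes in the same order, beside 2.77%, 0.771%, 5.32% and 1.26% of all tested genes. The library medians of the 41 genes were 1.45 ± 0.0215 in Dp16 sham (SD, n = 3), 1.42 ± 0.0438 in Dp16 tofacitinib (n = 5), 1.52 ± 0.0484 in 5xFAD-Dp16 sham (n = 3) and 1.42 ± 0.0730 in 5xFAD-Dp16 tofacitinib (n = 4). These SDs leave out the spread of the matching non-carrier groups.

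The ratios were compared between separate sets of mice. Across the 41 genes, which are not independent replicates, the ratio of Dp16 to wild-type and that of 5xFAD-Dp16 to 5xFAD had a Pearson r of 0.565 and a Spearman rho of 0.500. The ratios in sham and in tofacitinib-treated mice had an r of 0.444 and a rho of 0.472. The ratio followed neither the mean level (r 0.184), nor the counted length (r -0.232), nor the position along the segment (r -0.156) at all closely. The size of the difference from 1.5-fold and the width of the interval had an r of 0.425 and a rho of 0.442. Ratios far from 1.5 thus tended to be the less precise ones.

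**Figure D4:**
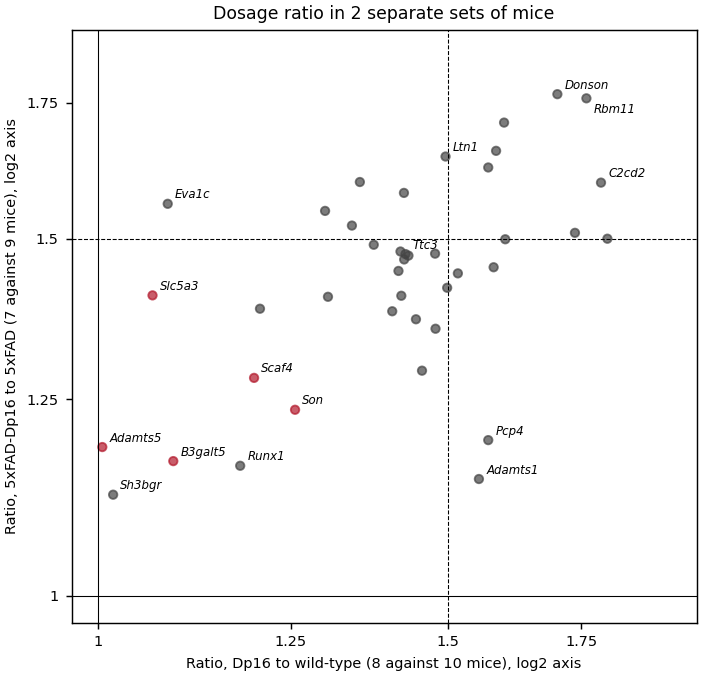
Ratio of each of the 41 genes in Dp16 against wild-type mice (x axis) and in 5xFAD-Dp16 against 5xFAD mice (y axis), each averaged over the treatments, on log2 axes; solid lines mark 1 and dashed lines 1.5. Genes called below 1.5-fold are in red. Eva1c, Adamts1, Slc5a3 and Pcp4 are among the genes off the diagonal.

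Neither the drug nor the transgenes gave a call among these genes in the edgeR fit. Tofacitinib against sham, averaged over the genotypes, gave 0 of 41 calls and 0 genes at an unadjusted p under 0.05 with edgeR (0.0% and 3.36% of all tested genes), and 0 calls with DESeq2 (0.00567%). 5xFAD against no 5xFAD gave 0 calls with edgeR (0.42% of all tested genes), 12 genes at an unadjusted p under 0.05 (20.3%), and 1 call with DESeq2 (3.33%), Psmg1, at a ratio of 0.83 (DESeq2 adjusted p = 0.0418). In the edgeR fit Psmg1 was at 0.83 (0.73 to 0.94, adjusted p = 0.117), Hspa13 at 0.88, Mrps6 at 0.83 and Son at 1.1. No difference in the effect of the duplication between treatments passed the threshold for these genes (0 calls by edgeR or DESeq2, 0.0% of all tested genes by either, 4 genes at an unadjusted p under 0.05 beside 2.33% of all), and none between transgene states did (0 calls by either, 0.00567% of all genes by either, 2 genes at an unadjusted p under 0.05, Slc5a3 and Adamts1, beside 4.35% of all). Between females and males 0 genes were called by edgeR or DESeq2 (0.0624% and 0.153% of all genes, 2 genes at an unadjusted p under 0.05, Sh3bgr and Slc5a3, beside 5.53% of all). These counts do not show that the genes were unaffected, since for Slc5a3 the interval of the difference between transgene states still reached 1.68.

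Genes outside the segment that work with these proteins had ratios near 1 by median. Of 137 listed partner genes 132 were tested, 0 rose and 1 fell in carriers, beside 1.17% of all tested genes called higher and 0.975% called lower, and their median ratio was 1.02. The 7 other chaperonin subunits, partners of Cct8, had a median ratio of 0.968 (0.936 to 1.02), with 0 called. The 26 other proteins of the small mitochondrial ribosomal subunit and 47 of the large had medians of 1.04 and 1.04, with 0 called in each. Among 10 genes of purine synthesis beside Gart the median was 0.994, and among 8 genes of ribosome-associated quality control beside Ltn1 it was 0.967. The 4 proteasome assembly partners of Psmg1 stood at 1.02 to 1.18 and the 5 tested GPI transferase partners of Pigp at 0.888 to 1.17, with 0 called in either. The gene that fell was Pcp4l1, a close relative of Pcp4, at 184 ± 49.9 CPM in carriers (SD, n = 15) and 246 ± 76.4 CPM in non-carriers (n = 19), a ratio of 0.718 (edgeR adjusted p = 0.0445). The striatal markers given above were also lower in carriers by median, and their part in the Pcp4l1 value was not tested.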

How the data were processed

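Strand-specific poly-A libraries from cortex were read as paired ends, per the labels' protocols. The deposited table of counts held whole reads per gene and mouse. Per the submitters' processing notes, bcl2fastq, FastQC 0.11.5, HISAT2 2.1.0, SAMtools 1.5, HTSeq 0.6.1 and build GRCm38 were used. The strand setting of the counting is not given in the sources used here. The deposited RPKM values were made by the authors from counted length and library total, which was checked by recomputing them from the counts. They served only for lengths and for comparing levels between genes. Positions are those of GENCODE M21 (GRCm38).

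Tests used edgeR 4.0.16 under R 4.3.3 (filterByExpr, TMM, quasi-likelihood F-test, two-sided) in 1 fit of all 34 libraries, with a term for each of the 8 groups and for sex, and Benjamini-Hochberg adjustment over 17632 genes at 0.05. The same fit tested each ratio against 1.5-fold, adjusted over the 106 tested genes of the segment. Every gene of at least 0.5 CPM is named with its ratio. The range in carriers and non-carriers is given for genes called against 1.5-fold and for the 4 highest and 4 lowest ratios, and other genes given in full were chosen after their values were seen. The genes, the partner and marker lists and the tests were chosen with earlier results of these data known. Alternatives were DESeq2 1.42.0, other scalings and filters, no sex term, a replicate block, removal of a trend on gene length, fits of only the groups compared, and libraries left out. Replicate numbers in the labels do not tie mice across groups. The series' text names 1 more mouse in 5xFAD tofacitinib and in 5xFAD-Dp16 sham than were analysed here.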

Additional observations from a re-analysis of the deposited data

Results flagged for a closer look

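Values per library were examined in every group of 4 or 5 mice, for 22 of the genes described and for the median over the 41 genes. Of these 138 sets, 15 held a library apart from the rest of its group, by a gap that is large beside the range of the group. Chance alone flags about 1 in 20 such sets. In 5xFAD tofacitinib 2, B3galt5 was high at 71.6 CPM (the other 4 mice 37.7 to 42.7), Sh3bgr was high at 1.72 CPM (others 0.398 to 0.732), Mrps6 was high at 26.4 CPM (others 11.7 to 15.8) and Ttc3 was low at 747 CPM (others 899 to 926). In 5xFAD sham 1, B3galt5 was low at 36.3 CPM (others 43.2 to 43.5), Scaf4 was low at 26.8 CPM (others 31.0 to 31.6) and Runx1 was high at 2.40 CPM (others 1.59 to 1.62). In 5xFAD sham 4, Mrpl39 was high at 26.6 CPM (others 23.3 to 23.4) and Adamts1 was low at 9.29 CPM (others 17.5 to 18.9). Son was low in Dp16 tofacitinib 4 at 169.8 CPM (others 208 to 218). In Dp16 tofacitinib 3, Donson was low at 4.63 CPM (others 6.24 to 6.88) and Ltn1 was high at 56.0 CPM (others 46.3 to 47.6). Ltn1 was also high in wild-type sham 1 at 36.6 CPM (others 29.9 to 31.6), Mrpl39 was low in wild-type sham 5 at 22.4 CPM (others 29.2 to 30.7), and Pcp4 was high in wild-type tofacitinib 1 at 630.2 CPM (others 199 to 256).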

How the results depend on the processing

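In carriers 31 of the 41 genes were called with all libraries and 30 to 33 when each library was left out in turn, with Btg3, Slc5a3, Pcp4 and B3galt5 called in some of those fits and Adamts1 not called in 21. The median ratio stayed at 1.42 to 1.45. The counts of the 4 pairs ranged under the same omissions from 8 to 12, 10 to 17, 5 to 9 and 7 to 11, in the order Dp16 sham, Dp16 tofacitinib, 5xFAD-Dp16 sham and 5xFAD-Dp16 tofacitinib. The 5 came without 5xFAD sham 1, 5xFAD-Dp16 sham 2 or 5xFAD-Dp16 sham 4, and the 11 without wild-type tofacitinib 1 or 5xFAD tofacitinib 1. Fits of only the groups compared called 0, 3, 12 and 0 genes in that order, with fewer mice behind the spread. With no filter on low counts, 22 genes were called in Dp16 tofacitinib, 18 in 5xFAD-Dp16 sham, 21 in 5xFAD-Dp16 tofacitinib and 7 for 5xFAD against no 5xFAD. In that fit the median degrees of freedom behind a test were 800650, beside 31.8. For 5xFAD-Dp16 tofacitinib DESeq2 called 14 and removal of the length trend 11, and for 5xFAD against no 5xFAD DESeq2 called 1 and leaving out a library 0 to 1 (Psmg1 without wild-type sham 3, Mrps6 without 5xFAD tofacitinib 2). The 5 genes below 1.5-fold became 8 with the length trend removed (also Cbr1, Mrpl39 and Prdm15), 3 without both wild-type sham 2 and 5xFAD tofacitinib 2 or without Dp16 sham 3 (B3galt5, Scaf4 and Son), and 3 to 6 over all single omissions. Sh3bgr ranged from 0.94, without 5xFAD-Dp16 sham 4, to 1.17. The causes of the other changes were not tested. With replicate number as a block the counts were 31 in carriers and 11, 10, 6 and 7 in the pairs, 5 below 1.5-fold and a median ratio of 1.45, and no call for the drug or the transgenes appeared. Libraries with the same number did not deviate together (median r 0.0142 over 98 pairs, -0.392 to 0.245), and 9 of 34 correlated best with their own number, so the numbers were taken as names only. Btg3 passed with DESeq2 (adjusted p = 0.0288) and Slc5a3 did too (0.0477). The intervals of Lca5l, Sh3bgr, Runx1 and Eva1c, with means of 0.725 to 2.13 CPM, held both 1 and 1.5, while that of Samsn1 at 2.41 CPM lay above 1 and that of Adamts5 at 3.08 CPM below 1.5.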
